A study of Mus musculus with 6 samples.

Results

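The DNA replication and mitosis genes are 44 mouse genes that act in succession as a cell copies and divides its genome. They were given as a named list and make up 44 of the 21883 protein-coding genes measured. The list has a replication side of 29 genes, with 10 licensing factors, 7 fork and polymerase components, 3 enzymes of nucleotide supply and 9 regulators of the step into S phase. Its mitotic side has 15 genes. Each gene was measured over its mm10 span plus 2 kb at either end, as the number of base pairs covered by peaks, here called the covered length.

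The peaks came from 6 CUT&Tag libraries of group 2 innate lymphoid cells (ILC2s), lymphocytes that release type 2 cytokines without an antigen receptor. CUT&Tag cuts DNA next to an antibody bound on chromatin. No label names the target of that antibody, and a peak marks a stretch enriched for this unnamed target. The cells came from mouse colon, were grown with the cytokines IL-33, IL-25, IL-7 and IL-2, and were sorted before the assay. The groups, with 2 libraries each, were FK866 plus succinate, FK866, and Control. FK866 inhibits NAMPT, the enzyme of NAD salvage, and succinate is an intermediate of the TCA cycle. The Control cells shared the culture cytokines and had neither agent. Doses, times, strain, sex and age are not stated in the labels. Nor is it stated if replicate libraries came from separate cultures or animals, so a p-value covers the spread between these samples alone, which may be technical.

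Before S phase, the origin recognition complex with Cdc6 and Cdt1 loads the Mcm helicase on DNA, which is licensing, and Cdc45 and the GINS complex then switch the helicase on. Cyclin D and cyclin E kinases free the E2F factors, which switch on many replication genes. Later, cyclin A and B with Cdk1 bring the cell into mitosis, and many mitotic promoters carry the CHR, a short element bound by the DREAM complex in resting cells and by the B-Myb and Foxm1 machinery in dividing ones.

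The lists held 45446 and 56361 peaks in the FK866 plus succinate libraries, 40320 and 43468 with FK866 alone, and 50489 and 41023 in Control. They covered between 39.0 and 43.8 Mb of the genome. The median peak was 618 and 528 bp wide in FK866 plus succinate, 737 and 651 bp in FK866, and 616 and 723 bp in Control. Read counts are not known from these lists, so covered length carries no counting interval. All 10 ILC2 marker genes had a peak in all 6 libraries, with a summed covered length of 72.5 to 73.7 kb in FK866 plus succinate, 72.2 to 77.7 kb in FK866 and 74.8 to 79.5 kb in Control. Among markers of other cells, Cd8a, Cd8b1, Ms4a1, Adgre1, Krt20, Il17a, Il23r, Ncr1, Klrb1c and Ifng had no peak in any library. T cell markers had a peak in all 6 libraries at 3 of 6 genes (5.71 to 7.79 kb in FK866 plus succinate, 5.84 to 7.93 kb in FK866, 5.80 to 6.51 kb in Control), and B cell markers at 4 of 5 genes (5.71 to 5.88 kb, 5.52 to 5.71 kb and 6.28 to 8.53 kb in the same order of groups). Myeloid markers did at 1 of 5, epithelial markers at 3 of 5, ILC3 markers at 1 of 4, and NK and ILC1 markers at 2 of 5. The part of other cells in the values below was not tested. In a bulk library, fewer cells of a type and less signal per cell cannot be told apart.

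The promoters of the 2 sides carried different letters. RefSeq promoter sequences (GRCm38.p6, whose coordinates are those of mm10), from 250 bases upstream to 50 bases downstream of a start site, were matched by symbol for 35 of the 44 genes, with 39 promoters. Mcm4, Gins1, Gins2, Pole, Ccne2, Ccnd2, Ccna2, Foxm1 and Aurkb had no entry and were not used here. E2F letters (TTTCCCGC, TTTGGCGC, TTTGGCGG or TTTCCCGG) were found in 11 of 27 replication promoters (40.7%) and in 1 of 12 mitotic promoters (8.33%), beside 4.15% of all 21262 promoters. CHR letters (TTTGAA or TTCGAA) were found in 6 of 27 replication promoters (22.2%) and in 10 of 12 mitotic promoters (83.3%), beside 17.6% of all promoters. The CCAAT box, bound by NF-Y, was found in 70.4% of replication promoters and 91.7% of mitotic promoters, beside 38.2% of all promoters. Both strands were searched, each pattern on its own, so a base can belong to more than one match. A match is a description of the letters and not a measured binding site.

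Further on, 16 starts are counted whose peak was narrower in both FK866 plus succinate libraries than in any other library. The promoters below are a part of these, each under a peak in all 6 libraries. Mcm3 (chr1:20820263-20820562, minus strand), Mcm5 (chr8:75109259-75109558, plus strand) and E2f2 (chr4:136172024-136172323, plus strand) are on the replication side, and all have E2F letters. Cdc6, Cdt1 and Pola1 met the same rule and also had E2F letters. Cdc45, Cdk4, Mcm2, Orc1, Pcna, Rrm2 and Tyms met it and had no E2F letters. Cdk1 (chr10:69352863-69353162, minus strand), Plk1 (chr7:122159185-122159484, plus strand) and Birc5 (chr11:117848987-117849286, plus strand) stand for the mitotic side. Capitals mark E2F, CHR and CCAAT letters on either strand, and the sequences run 5′ to 3′ on the strand of the gene.
Mcm3: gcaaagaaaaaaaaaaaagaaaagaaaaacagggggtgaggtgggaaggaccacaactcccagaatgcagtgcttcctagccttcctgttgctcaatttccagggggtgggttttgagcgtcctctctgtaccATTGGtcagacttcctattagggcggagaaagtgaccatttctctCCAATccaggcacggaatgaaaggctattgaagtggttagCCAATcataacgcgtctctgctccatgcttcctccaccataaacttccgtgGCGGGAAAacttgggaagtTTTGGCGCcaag
Mcm5: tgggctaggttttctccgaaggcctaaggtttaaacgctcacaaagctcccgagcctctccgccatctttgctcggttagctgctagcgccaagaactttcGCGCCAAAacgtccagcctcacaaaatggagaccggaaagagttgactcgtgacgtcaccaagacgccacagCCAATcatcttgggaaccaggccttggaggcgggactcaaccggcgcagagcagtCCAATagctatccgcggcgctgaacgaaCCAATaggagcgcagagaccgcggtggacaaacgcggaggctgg
E2f2: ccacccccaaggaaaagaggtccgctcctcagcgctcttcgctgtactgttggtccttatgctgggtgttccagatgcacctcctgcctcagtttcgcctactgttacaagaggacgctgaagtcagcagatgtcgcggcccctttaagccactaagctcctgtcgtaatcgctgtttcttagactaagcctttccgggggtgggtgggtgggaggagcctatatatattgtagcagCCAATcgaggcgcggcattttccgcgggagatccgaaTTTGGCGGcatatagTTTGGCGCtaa
Cdk1: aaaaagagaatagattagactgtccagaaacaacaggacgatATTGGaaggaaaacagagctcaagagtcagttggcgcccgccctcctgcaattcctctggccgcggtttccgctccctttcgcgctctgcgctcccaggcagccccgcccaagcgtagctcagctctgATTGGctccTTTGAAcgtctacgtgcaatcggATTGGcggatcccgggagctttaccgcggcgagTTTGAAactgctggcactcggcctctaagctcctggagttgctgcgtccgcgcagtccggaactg
Plk1: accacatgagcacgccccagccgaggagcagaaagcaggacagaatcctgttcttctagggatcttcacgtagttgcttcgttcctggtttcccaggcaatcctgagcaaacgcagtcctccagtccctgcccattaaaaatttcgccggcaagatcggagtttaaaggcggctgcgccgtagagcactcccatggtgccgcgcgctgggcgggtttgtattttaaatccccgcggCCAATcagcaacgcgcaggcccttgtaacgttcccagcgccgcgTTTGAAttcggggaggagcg
Birc5: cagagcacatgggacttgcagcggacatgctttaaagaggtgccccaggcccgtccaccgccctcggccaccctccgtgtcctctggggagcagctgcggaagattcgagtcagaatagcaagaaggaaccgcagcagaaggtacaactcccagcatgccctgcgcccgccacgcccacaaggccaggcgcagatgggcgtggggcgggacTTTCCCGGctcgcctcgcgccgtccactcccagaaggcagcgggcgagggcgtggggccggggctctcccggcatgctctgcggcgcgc
Mcm3 and E2f2 had E2F letters at 2 places each, all within the 50 bases after the start site. Mcm5 had them at 1 place upstream, on the other strand. Cdk1 had CHR letters at 2 places and Plk1 at 1, each with CCAAT letters upstream of it. Birc5 was the mitotic promoter with E2F letters, and it had none of the CHR or CCAAT letters in this window.

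**Figure D1:**
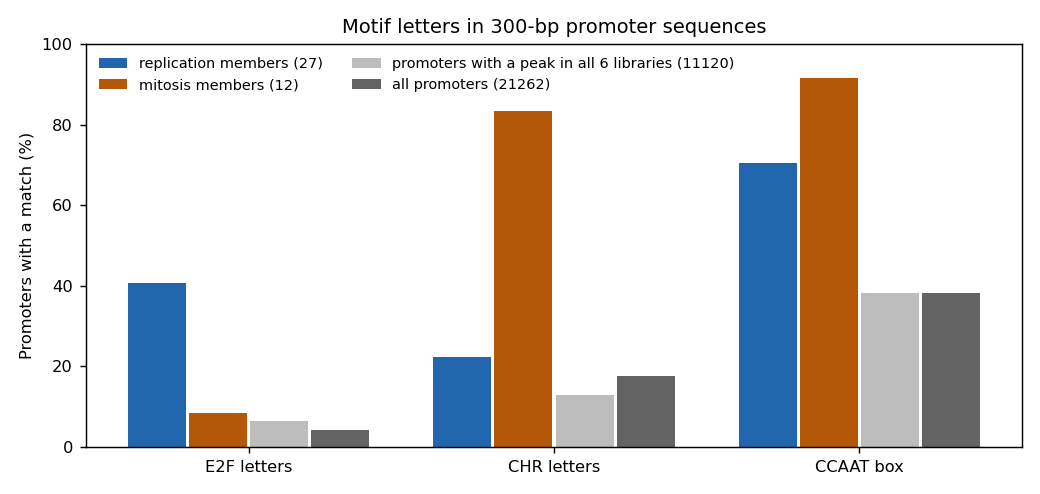
Share of promoter sequences of 300 bp with at least 1 match to E2F, CHR or CCAAT letters (y axis, percent), for 27 replication promoters, 12 mitotic promoters, 11120 promoters under a peak in all 6 libraries, and all 21262 promoters. E2F letters stand highest in the replication bar (40.7%) and CHR letters in the mitotic bar (83.3%).

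All 44 genes had a peak in all 6 libraries, against 64.1% of the 21883 protein-coding genes. Over the 6 libraries the median gene of the list had 2398 bp covered, or 13.1% of its window, against 2018 bp and 8.15% over the 15358 windows covered in at least 2 libraries. The windows were shorter than usual, with a median of 19.8 kb against 26.1 kb, and ran between 7.754 kb (Cdk4) and 331.622 kb (Pola1). A neighbouring gene lay partly inside the window of 18 of the 44 genes, so a peak there can belong to either gene.

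As a percent of the window, the licensing factors ran between 5.58% at Mcm10, a helicase activation factor, and 30.3% at Cdt1, the helicase loader. Fork components ran between 0.572% at Pola1, the catalytic subunit of the primase polymerase, and 34.9% at Pcna, the sliding clamp, whose window also reaches Cds2 and Tmem230. Both ribonucleotide reductase subunits marked the ends of nucleotide supply, with 4.58% at Rrm1 and 30.9% at Rrm2. Among the G1/S regulators, E2f3 had 4.46% and E2f1 23.0% covered. On the mitotic side, the checkpoint kinase Bub1 had 3.51% and Cdc20, the activator of the anaphase-promoting complex, 26.9%. The low values lie in long windows, and the length of a window is part of this measure.

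Most of the covered length lay in 1 place per gene. The lead region, the merged peak region with the most covered base pairs, had a peak in all 6 libraries for all 44 genes and held a median of 86.3% of the covered length. For all 35 genes with a promoter entry it contained a start site. It was the only region for 8 genes (Mcm7, Pola1, Rrm1, Rrm2, Cdk4, Ccnb1, Bub1 and Cdc20). The lowest lead shares were 29.4% at Ccnd3 and 33.7% at Ccnd2, the D-type cyclins, whose windows held 24 and 8 regions. Ranked by the deposited −log10 p within each library, the lead peaks had a median percentile of 89.3, between 71.4 at Ccnd2 and 99.3 at Pcna. Lead peaks were thus among the stronger peaks of their own lists, which held for start-site peaks at large. Per library, peaks over the start sites of the list had a median percentile of 87.7 to 90.6. Over the 11120 promoters with a peak in all 6 libraries it was 86.6 to 90.4.

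**Figure D2:**
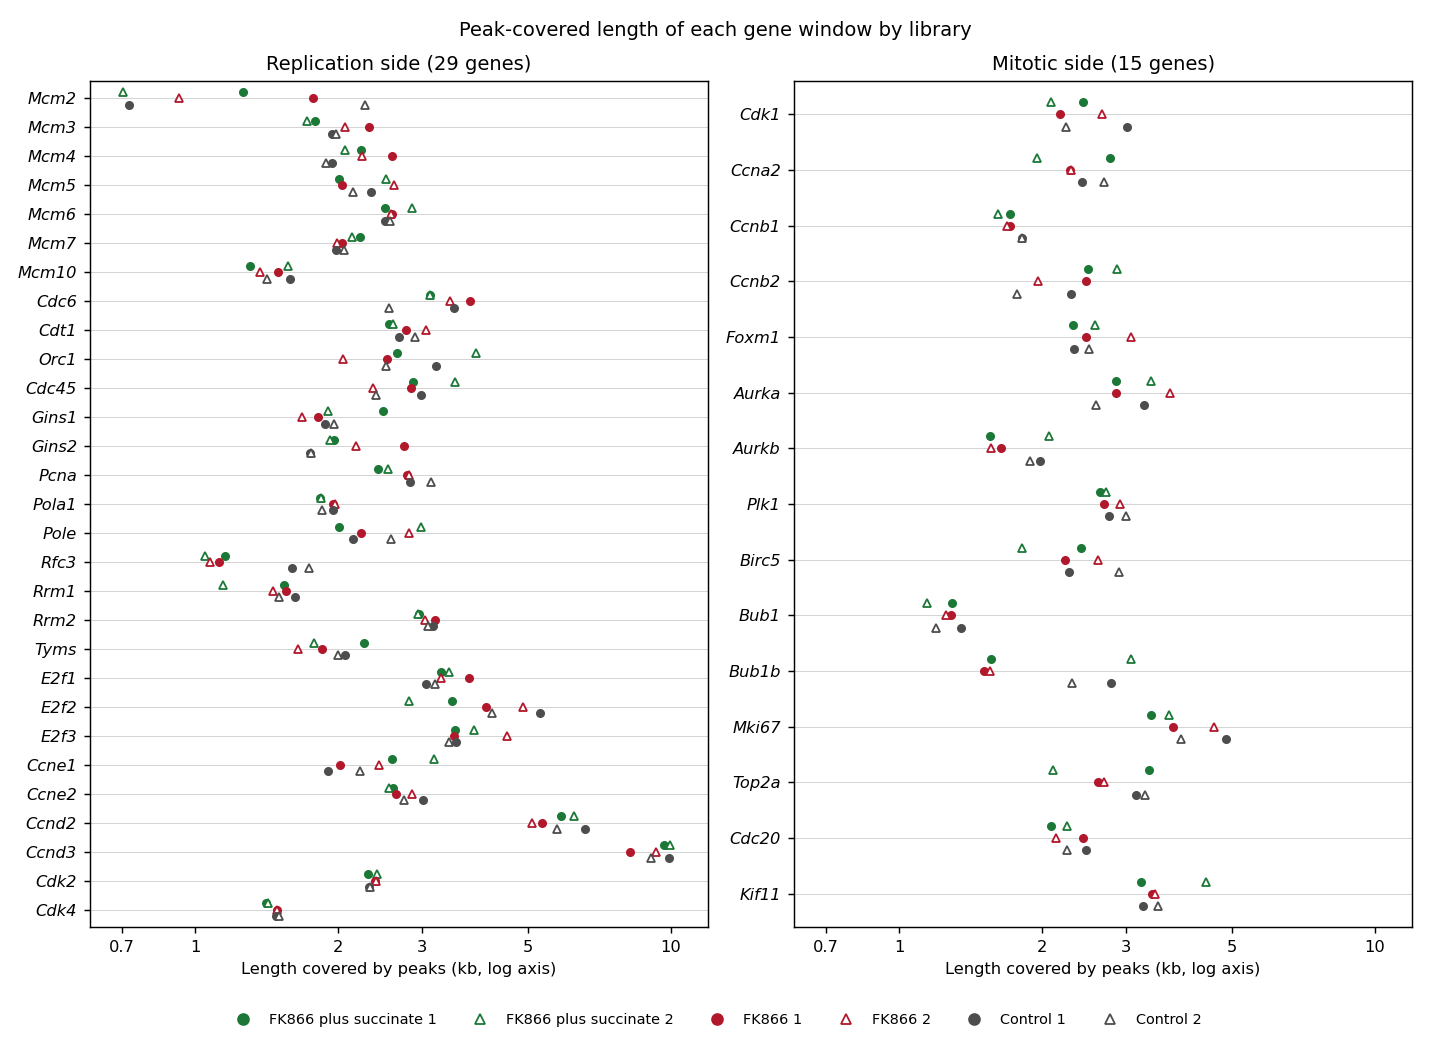
Covered length of each gene window (x axis, kb, log axis) in each library, for the 29 replication genes (left) and the 15 mitotic genes (right); filled circles are replicate 1 and open triangles replicate 2. Points of the groups are mixed at most genes, Rfc3 sits lower in both FK866 plus succinate and both FK866 libraries than in both Control libraries, and Ccnd3 is the longest in every library.

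No window of the list, and none of the 15358 windows tested, passed an adjusted p of 0.05 in any of the 3 comparisons (limma on covered base pairs, all 6 libraries in one fit, Benjamini-Hochberg adjustment; 0% of windows in each comparison and direction). The smallest adjusted p among the 44 genes was 0.892 for FK866 vs Control, 0.520 for FK866 plus succinate vs FK866 and 0.437 for FK866 plus succinate vs Control. At an unadjusted p under 0.05 stood 3, 1 and 4 of the 44 genes, beside 803, 1315 and 1380 of all windows. The values below are therefore descriptions of 2 libraries against 2, and the comparisons share libraries with each other.

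In FK866 vs Control, 17 genes had a longer and 27 a shorter mean covered length, with a median change of -2.95% against -2.16% over all windows. That median was not stable, at 2.73% after scaling to the total covered length, 0.112% after quantile normalization, 0.581% with lists of equal length and 0.609% without Control replicate 1. The groups did not overlap for 7 longer genes (12.8% of all windows did so) and 10 shorter genes (19.9% of all windows). On the replication side 7 of 29 were longer and 5 shorter without overlap, and on the mitotic side none of 15 was longer and 5 were shorter. The median change was -0.224% for replication genes and -4.84% for mitotic genes.

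In FK866 plus succinate vs FK866, 17 genes had a longer and 27 a shorter mean, with a median change of -4.09% against -0.729% over all windows. Leaving out FK866 replicate 2 brought that median to -1.09%, and scaling to the total covered length to -8.98%. Without overlap, 9 genes were longer (17.9% of all windows) and 12 shorter (21.8% of all windows). These were 7 longer and 11 shorter replication genes, and 2 longer and 1 shorter mitotic genes. The median change was -4.68% on the replication side and -3.98% on the mitotic side.

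In FK866 plus succinate vs Control, 19 genes had a longer and 25 a shorter mean, with a median change of -3.77% against -2.64% over all windows. That median was 0.287% without FK866 plus succinate replicate 1, 0.467% without Control replicate 1 and -1.08% after quantile normalization. Without overlap, 6 genes were longer (13.4% of all windows) and 13 shorter (24.5% of all windows). These were 5 longer and 9 shorter replication genes, and 1 longer and 4 shorter mitotic genes. The median change was 1.07% on the replication side and -7.56% on the mitotic side. The difference between the sides was not tested.

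**Figure D3:**
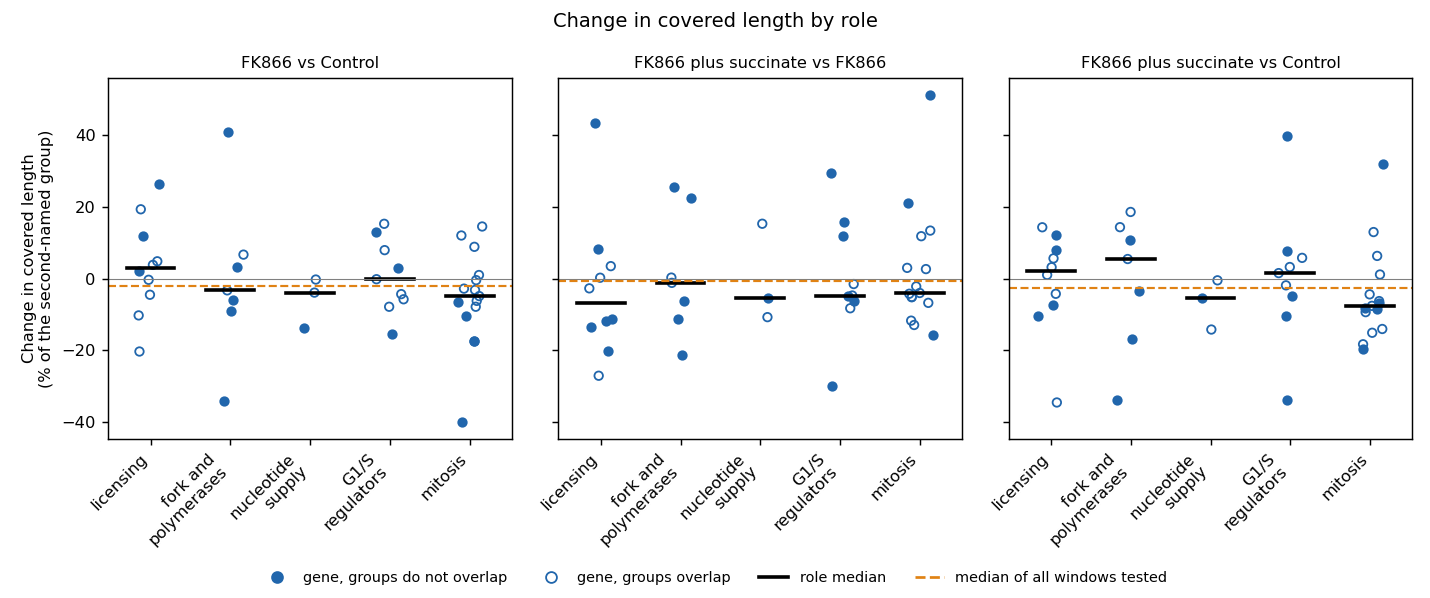
Change in mean covered length of each gene (y axis, percent of the second-named group's mean) by role in the 3 comparisons; filled points are genes whose 2 groups do not overlap, black bars are role medians, and the dashed line is the median of all 15358 windows. Points lie on both sides of 0 in most roles and the role medians lie within 10% of 0.

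Among the licensing factors, Mcm3, a subunit of the Mcm2-7 helicase (chr1:20802966-20820312), had 1790 and 1717 bp covered in FK866 plus succinate, 2322 and 2063 bp in FK866 and 1935 and 1979 bp in Control. Both FK866 plus succinate libraries were the shortest and both FK866 libraries the longest, with no overlap between any of the groups. FK866 plus succinate differed from FK866 by -439 ± 138 bp (SE), or -20.0% (limma, adjusted p = 0.520). The lead region at the Mcm3 start had 1504 and 1428 bp in FK866 plus succinate, 1971 and 2063 bp in FK866 and 1935 and 1979 bp in Control. There the mean difference of FK866 plus succinate from FK866 was -551 bp, more than over the whole window. Outside the lead region there were 286 and 289 bp in FK866 plus succinate, 351 and 0 bp in FK866 and 0 bp in both Control libraries. That length came from 3 regions that were each found in 1 library.

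Mcm4, another helicase subunit (chr16:15623897-15637400), had 2230 and 2065 bp in FK866 plus succinate, 2593 and 2240 bp in FK866 and 1937 and 1887 bp in Control. Both Control libraries were the shortest, and FK866 was longer than Control by 504.5 ± 170 bp (limma, adjusted p = 0.908). Outside the lead region there were 385 and 253 bp in FK866 plus succinate and 490 and 395 bp in FK866, against 0 bp in both Control libraries. The window held 4 regions, of which 2 were found in 1 library each. No region outside the lead had a peak in both libraries of a group. The window also reaches Prkdc, and the lead region itself overlapped between FK866 and Control.

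Mcm7, which had a single region, reached 2217 and 2135 bp in FK866 plus succinate, 2031 and 1987 bp in FK866 and 1976 and 2054 bp in Control. It was longer in both FK866 plus succinate libraries than in the other 4, by 167 bp over FK866 (8.31%; limma, adjusted p = 0.744) and by 161 bp over Control (limma, adjusted p = 0.766). Cdt1 was shorter in both FK866 plus succinate libraries, with 2552 and 2603 bp against 2778 and 3064 bp in FK866 and 2679 and 2892 bp in Control. Cdc6, which loads the helicase with Cdt1, had 3124 and 3120 bp in FK866 plus succinate, below the 3781 and 3441 bp in FK866, and Control overlapped with both at 3493 and 2557 bp.

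Orc1, the largest subunit of the origin recognition complex (chr4:108575705-108616030), had the largest licensing change in FK866 plus succinate vs FK866. It had 2656 and 3900 bp in FK866 plus succinate, 2528 and 2041 bp in FK866 and 3210 and 2523 bp in Control. The change over FK866 was 43.5% with groups that did not overlap, and the lowest FK866 plus succinate library lay 128 bp above the highest FK866 library (limma, adjusted p = 0.671). The lead region hardly moved, at 1988 and 1964 bp in FK866 plus succinate, 2043 and 2041 bp in FK866 and 2068 and 2016 bp in Control, so the change lay in other peaks of the window. Mcm6 had 2505 and 2858 bp in FK866 plus succinate, 2595 and 2586 bp in FK866 and 2505 and 2570 bp in Control. Both FK866 libraries were above both Control libraries at Mcm6, by a small margin. Mcm2, Mcm5 and Mcm10 overlapped in every comparison.

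At the fork, Rfc3, a subunit of the clamp loader (chr5:151642817-151651208), had the smallest adjusted p of the list against Control. It had 1153 and 1051 bp in FK866 plus succinate, 1121 and 1076 bp in FK866 and 1599 and 1733 bp in Control. Both Control libraries lay above the other 4. The difference from Control was -564 ± 110 bp in FK866 plus succinate (-33.9%; limma, adjusted p = 0.437) and -567.5 ± 110 bp in FK866 (-34.1%; limma, adjusted p = 0.892). The start-site region did not separate the groups, with 1153 and 1051 bp in FK866 plus succinate, 1121 and 1076 bp in FK866 and 1067 and 1225 bp in Control. Outside it there was 0 bp in FK866 plus succinate and FK866, against 532 and 508 bp in Control, and that length came from 2 regions that were each found in 1 library. The 2 Control libraries thus had their extra peaks at different places.

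Pcna (chr2:132249286-132253180) had 2425 and 2543 bp in FK866 plus succinate, 2789 and 2816 bp in FK866 and 2833 and 3134 bp in Control. The 3 groups did not overlap, and the lowest values were those of FK866 plus succinate (-16.7% vs Control; limma, adjusted p = 0.517). The lead region had 1478 and 1623 bp in FK866 plus succinate, 1859 and 1927 bp in FK866 and 1908 and 2242 bp in Control. FK866 plus succinate was again the lowest there, while FK866 and Control overlapped. The other Pcna region lay between 889 and 947 bp in all 6 libraries.

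Gins2, a subunit of the GINS complex (chr8:120581266-120589075), had 1958 and 1917 bp in FK866 plus succinate, 2743 and 2179 bp in FK866 and 1742 and 1752 bp in Control. FK866 was the longest group and Control the shortest, without overlap, and FK866 lay 714 ± 213 bp above Control (40.9%; limma, adjusted p = 0.901). The Gins2 lead region did not follow, with 1506 and 1917 bp in FK866 plus succinate, 1762 and 1796 bp in FK866 and 1742 and 1752 bp in Control. Outside it there were 452 and 0 bp in FK866 plus succinate and 981 and 383 bp in FK866, against 0 bp in both Control libraries. In the gene span without flanks the change of FK866 over Control was 1.82%, and within 4 kb around the lead site it was 1.83%. Gins1, of the same complex, went the other way, with 2478 and 1904 bp in FK866 plus succinate, 1812 and 1679 bp in FK866 and 1875 and 1956 bp in Control. Both FK866 libraries were the shortest at Gins1, and the lead region there stayed between 1118 and 1181 bp in all 6 libraries.

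Cdc45, the helicase partner of GINS, had 2872 and 3522 bp in FK866 plus succinate against 2847 and 2368 bp in FK866, while Control lay at 2986 and 2404 bp. Its groups parted by 25 bp. Pola1 had a single region of 1830 and 1840 bp in FK866 plus succinate, 1951 and 1965 bp in FK866 and 1948 and 1849 bp in Control. The FK866 plus succinate values were the lowest there. Pole, the leading-strand polymerase, overlapped between all groups, with 2010 and 2979 bp in FK866 plus succinate, 2235 and 2812 bp in FK866 and 2147 and 2582 bp in Control.

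For nucleotide supply, Rrm2, the regulated subunit of ribonucleotide reductase, had 2962 and 2938 bp in FK866 plus succinate, 3186 and 3042 bp in FK866 and 3160 and 3082 bp in Control. The shortest were both FK866 plus succinate libraries (-5.27% vs FK866; limma, adjusted p = 0.819). Rrm1 overlapped, with 1540 and 1143 bp in FK866 plus succinate, 1549 and 1456 bp in FK866 and 1625 and 1501 bp in Control. Tyms, which makes thymidylate, had 2262 and 1775 bp in FK866 plus succinate, 1851 and 1649 bp in FK866 and 2062 and 1993 bp in Control, and both FK866 libraries were below both Control libraries.

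Of the G1/S regulators, E2f2, an activator E2F (chr4:136172274-136196057), had 3473 and 2816 bp in FK866 plus succinate, 4081 and 4881 bp in FK866 and 5301 and 4206 bp in Control. The FK866 plus succinate libraries were below the other 4, with a difference of -1336.5 ± 535 bp from FK866 (-29.8%; limma, adjusted p = 0.598) and -1609 ± 535 bp from Control (-33.8%; limma, adjusted p = 0.5). The lead region kept this order, with 2284 and 2542 bp in FK866 plus succinate, 3084 and 3409 bp in FK866 and 3254 and 3243 bp in Control. E2f1 had 3294 and 3424 bp in FK866 plus succinate, 3765 and 3283 bp in FK866 and 3055 and 3187 bp in Control, and both Control libraries were the shortest. E2f3 overlapped in all comparisons.

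Ccne1, cyclin E1 (chr7:38097984-38107490), had 2590 and 3175 bp in FK866 plus succinate, 2015 and 2438 bp in FK866 and 1903 and 2221 bp in Control. Both FK866 plus succinate libraries were above the other 4, with a change of 39.8% vs Control (limma, adjusted p = 0.515). The lead region was not longer there, with 1872 and 2005 bp in FK866 plus succinate, 2015 and 2013 bp in FK866 and 1903 and 2221 bp in Control. Outside it there were 718 and 1170 bp in FK866 plus succinate, 0 and 425 bp in FK866 and 0 bp in both Control libraries. Ccne2, cyclin E2, had 2601 and 2561 bp in FK866 plus succinate, 2645 and 2862 bp in FK866 and 3012 and 2742 bp in Control. Over the whole window it moved opposite to Ccne1, with both FK866 plus succinate libraries the shortest. The Ccne2 window also reaches Ints8. Within 4 kb around the lead site the 2 genes did not differ in direction. There FK866 plus succinate differed from FK866 by -3.75% at Ccne1 and -2.93% at Ccne2, and from Control by -5.99% and -2.97%.

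Ccnd2 had 5876 and 6249 bp in FK866 plus succinate, 5355 and 5103 bp in FK866 and 6600 and 5753 bp in Control. Both FK866 libraries were the shortest (-15.3% vs Control; limma, adjusted p = 1). Ccnd3 had 9664 and 9949 bp in FK866 plus succinate, 8204 and 9303 bp in FK866 and 9894 and 9098 bp in Control, and its FK866 plus succinate libraries were above its FK866 libraries. Cdk4, the partner of the D cyclins, and Cdk2, the partner of cyclin E, differed by little. Cdk4 had 1407 and 1426 bp in FK866 plus succinate, the shortest, 1487 bp in both FK866 libraries and 1481 and 1497 bp in Control. Cdk2 had 2314 and 2408 bp in FK866 plus succinate, 2393 and 2400 bp in FK866 and 2321 and 2328 bp in Control. Both FK866 libraries were above both Control libraries at Cdk2.

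On the mitotic side, Bub1b, the checkpoint protein BubR1 (chr2:118598202-118641592), had the largest percent change of all 44 genes in FK866 plus succinate vs FK866. It had 1556 and 3074 bp in FK866 plus succinate, 1507 and 1553 bp in FK866 and 2793 and 2313 bp in Control. FK866 was shorter than Control (-40.1%; limma, adjusted p = 1), and the 51.3% change of FK866 plus succinate over FK866 rested on replicate 2, since replicate 1 lay 3 bp above FK866 replicate 2. The start-site region had 1556 and 1535 bp in FK866 plus succinate, 1507 and 1553 bp in FK866 and 1506 and 1524 bp in Control. Outside it FK866 lay below Control, with 0 bp in both FK866 libraries against 1287 and 789 bp in Control. FK866 plus succinate had 0 and 1539 bp there and did not separate from either group.

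Aurkb, the kinase of the chromosomal passenger complex, had 1554 and 2069 bp in FK866 plus succinate, 1637 and 1557 bp in FK866 and 1981 and 1883 bp in Control. Both FK866 libraries were below both Control libraries (-335 ± 199 bp; limma, adjusted p = 1). Top2a, the topoisomerase that untangles chromosomes, had 3357 and 2103 bp in FK866 plus succinate, 2618 and 2699 bp in FK866 and 3141 and 3288 bp in Control. FK866 was again below Control, while the FK866 plus succinate libraries spanned all the others. Ccna2, cyclin A2, had 2780 and 1949 bp in FK866 plus succinate, 2288 and 2302 bp in FK866 and 2427 and 2689 bp in Control.

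Ccnb1, cyclin B1, had a single region of 1710 and 1612 bp in FK866 plus succinate, 1712 and 1683 bp in FK866 and 1812 and 1814 bp in Control. Both Control libraries were the longest (-8.38% in FK866 plus succinate; limma, adjusted p = 0.751). Ccnb2, cyclin B2, went the other way, with 2495 and 2875 bp in FK866 plus succinate, 2472 and 1957 bp in FK866 and 2295 and 1772 bp in Control. Its FK866 plus succinate libraries were above the other 4, although the gap to FK866 replicate 1 was 23 bp. The Ccnb2 lead region overlapped between the groups.

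Mki67, the proliferation antigen Ki-67, had 3377 and 3684 bp in FK866 plus succinate, 3769 and 4601 bp in FK866 and 4874 and 3922 bp in Control. Again the FK866 plus succinate libraries were the shortest (-19.7% vs Control; limma, adjusted p = 0.675). The lead region did not follow, at 2970 and 2835 bp in FK866 plus succinate, 2886 and 2919 bp in FK866 and 2720 and 2798 bp in Control. Cdc20 had 2088 and 2251 bp in FK866 plus succinate, 2435 and 2140 bp in FK866 and 2467 and 2256 bp in Control, and FK866 plus succinate lay below Control by 5 bp between the nearest libraries. Plk1, a kinase of mitotic entry, had 2650 and 2720 bp in FK866 plus succinate, 2694 and 2911 bp in FK866 and 2760 and 3004 bp in Control, so FK866 plus succinate was below Control there too. Cdk1, Foxm1, Aurka, Birc5, Bub1 and Kif11 overlapped in all 3 comparisons.

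In a window of 4 kb around the lead site, many of these separations were smaller. Of the genes whose groups did not overlap in FK866 vs Control, 8 of 17 had a change smaller by over 1.5 times there and 6 one of opposite sign. These were 8 and 6 of 21 in FK866 plus succinate vs FK866, and 6 and 4 of 19 in FK866 plus succinate vs Control.

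**Figure D4:**
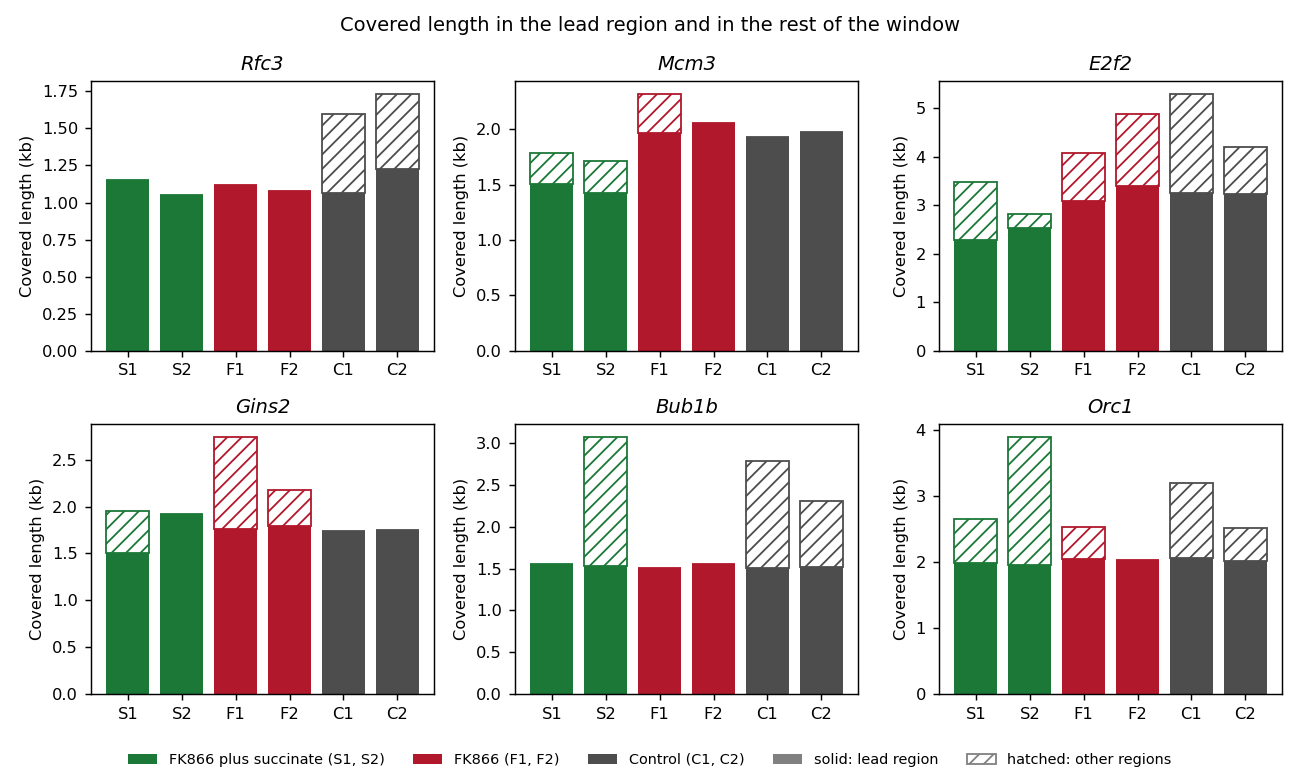
Covered length (y axis, kb, from 0) of 6 genes in each library, split into the lead region (solid) and all other regions of the window (hatched). At Mcm3 and E2f2 the solid part is shortest in both FK866 plus succinate libraries. At Rfc3, Bub1b and Orc1 the solid part is nearly level and the libraries differ mainly in the hatched part. The hatched part does not separate every pair of groups.

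Peak presence was then compared region by region. The windows of the 44 genes held 182 merged regions. Every library had a peak in 56 of them (30.8%), and 74 (40.7%) were found in 1 library. Over the 72725 regions in windows of protein-coding genes these shares were 24.7% and 47.2%. A region counted as gained when both libraries of the first-named group had a peak and neither of the second did, and as lost in the reverse case. With 2 libraries against 2 no exact test of presence can pass the 0.05 threshold, so the counts stand beside those of all 101435 regions.

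In FK866 vs Control, 3 of the 182 regions were gained (1.65%, against 1.4% of all regions) and 3 were lost (1.65%, against 2.04%). The gained ones lay at Foxm1, Gins2 and E2f2, and the lost ones at Bub1b, Gins1 and Aurkb. In FK866 plus succinate vs FK866, 5 were gained (2.75%, against 2.76%) and 2 were lost (1.10%, against 1.68%). In FK866 plus succinate vs Control, 4 were gained and 4 were lost (2.20% each, against 2.44% and 2.06%). All these shares were near those of all regions.

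The counts hold 14 different regions at 12 genes, of which 9 lay inside the gene span and 5 in the flanks. The gene table used here gives spans without exons or introns. None was a lead region, and their peaks stood between percentile 0.962 and 63.8 of −log10 p in their lists, below every mean lead percentile of the 44 genes. The Orc1 region chr4:108587832-108588829 had 668 and 520 bp in FK866 plus succinate and 0 bp in the other 4 libraries, at percentiles of 3.03 and 13.7. The longest at Ccnd3, chr17:47583790-47585104, had 822 and 601 bp in FK866 plus succinate and 0 bp in the other 4, at percentiles of 29.7 and 42.1. At Ccne1, chr7:38096115-38096753 in the flank had 430 and 403 bp in FK866 plus succinate and 0 bp in the other 4, at percentiles of 8.01 and 9.47. These regions were seen in both libraries of 1 group, in the lower ranks of their lists.

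At Bub1b, chr2:118606019-118606568 had 0 bp in the FK866 plus succinate and FK866 libraries and 550 and 412 bp in the Control libraries. It lay 6460 bp from the lead region. At Mki67, chr7:135713233-135713821 had 0 bp in both FK866 plus succinate libraries, 422 and 588 bp in FK866 and 393 and 529 bp in Control. It lay 357 bp from the lead region and was the change nearest to a start-site peak. At Gins1, chr2:150915004-150915728 had 378 and 723 bp in FK866 plus succinate, 0 bp in both FK866 libraries and 434 and 274 bp in Control. The Gins1 region was missing with FK866 alone and present in the other groups. Of the flank regions, the one at Ccne2 lay in Ints8 and the one at Gins2 in Gse1, so they can belong to those neighbours.

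The reach of the start-site peak differed by group, here as over promoters at large. Of the 39 promoters, 38 lay under a peak in all 6 libraries, against 52.3% of all 21262 promoters, and the second E2f2 start had no peak in any. These 38 start sites belong to 35 genes and 36 different peaks, since the paired starts of E2f3 and of Mcm7 each share 1 peak. This measure was chosen after covered length had been seen. It takes only the peak over the start, so a stretch called as 2 peaks in 1 library counts as narrower there. Such a split was found at 2 and 3 of the 38 starts in the FK866 plus succinate libraries, at 2 in each FK866 library and at 1 and 0 in the Control libraries. Over all promoters it was found at 2.48% and 3.33% in FK866 plus succinate, 1.65% and 1.82% in FK866 and 2.19% and 1.34% in Control.

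The median width of these peaks was 1999 and 2018 bp in FK866 plus succinate, 2039 and 2052 bp in FK866 and 2067.5 and 2143.5 bp in Control. Over the 11120 promoters with a peak in all 6 libraries it was 1597 and 1581 bp in FK866 plus succinate, 1662.5 and 1680 bp in FK866 and 1653 and 1680 bp in Control. In both sets both FK866 plus succinate libraries were the narrowest, and the median of the replication and mitosis genes was above that of all promoters in every library.

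The difference lay mainly downstream of the start. The peaks of the 38 starts reached 1176.5 and 1166.5 bp downstream in FK866 plus succinate, 1260.5 and 1275.5 bp in FK866 and 1281 and 1342 bp in Control (medians). Upstream they reached 613 and 594 bp in FK866 plus succinate, 620 and 600.5 bp in FK866 and 592 and 597.5 bp in Control, a narrow range. Over all 11120 promoters the downstream reach was 955 and 943.5 bp in FK866 plus succinate, 1010 and 1019.5 bp in FK866 and 1003.5 and 1025 bp in Control. Their upstream reach was 554 and 550 bp in FK866 plus succinate and 564 and 569 bp in FK866. In Control it was 558 and 562 bp, so FK866 plus succinate was the shortest there too, by a smaller margin. The shorter downstream reach was thus seen in both sets. The median width of all peaks was also lowest in the FK866 plus succinate library with the most peaks, and the part of list length in this result was not tested.

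By side, the downstream reach of 26 replication starts was 1147.5 and 1139 bp in FK866 plus succinate, 1235 and 1233.5 bp in FK866 and 1194.5 and 1340.5 bp in Control. Both FK866 plus succinate libraries were the shortest. For 12 mitotic starts it was 1217.5 and 1308.5 bp in FK866 plus succinate, 1453.5 and 1304 bp in FK866 and 1427.5 and 1367 bp in Control. There FK866 plus succinate overlapped with FK866 and lay below Control. Upstream, the mitotic starts reached 755 and 718.5 bp in FK866 plus succinate and 738 and 696 bp in FK866. Both groups lay above the 672.5 and 683.5 bp of Control, opposite to FK866 plus succinate downstream. Replication starts reached 533 and 551.5 bp upstream in FK866 plus succinate and 540 and 562 bp in FK866. Control was again the shortest, at 530 and 491.5 bp.

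**Figure D5:**
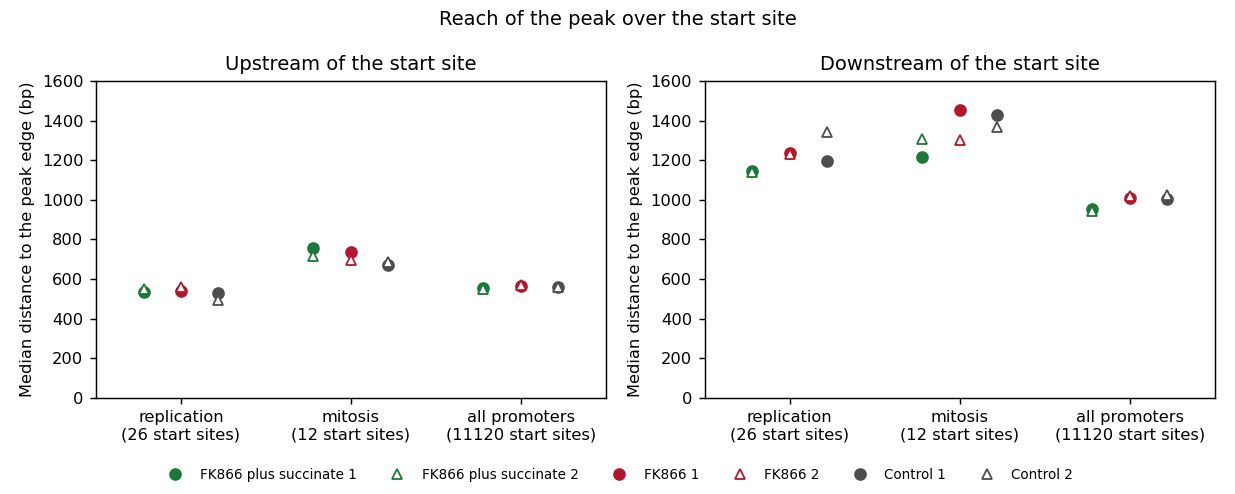
Median distance (y axis, bp, from 0) between the start site and the upstream edge (left) or downstream edge (right) of the peak over it, per library, for 26 replication starts, 12 mitotic starts and 11120 starts of all promoters. Downstream, both FK866 plus succinate libraries are lowest for replication starts and for all promoters. Upstream the libraries lie closer together, with both Control libraries lowest for replication and for mitotic starts.

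Start by start, FK866 plus succinate was narrower than FK866 without overlap at 18 of the 38 (47.4%, against 41.8% of all promoters) and wider at 5 (13.2%, against 6.64%). Those 5 starts lie under 3 different peaks, of Mcm7, E2f3 and Ccnd3, which is 8.33% of 36 peaks, against 6.96% of the 8919 different peaks of all promoters. Against Control it was narrower at 20 of the 38 (52.6%, against 40.6%) and wider at 5 (13.2%, against 6.95%), which lie under 4 different peaks (11.1%, against 7.13%). It was narrower than both at 16 of the 38 (42.1%, against 28.2% of all promoters), with no test of that difference. Some of the 16 parted by a few bp. The nearest libraries had 1478 and 1480 bp at Pcna, 2503 and 2510 bp at Cdt1 and 1840 and 1849 bp at Pola1, FK866 plus succinate first. The stretch at the Pcna start was also split in some libraries of each group. FK866 vs Control was narrower at 4 (10.5%, against 15.4%) and wider at 6 (15.8%, against 17.5%). None of the 38 passed an adjusted p of 0.05 in limma, where 51 of all promoters did in FK866 plus succinate vs FK866 (0.036% wider and 0.423% narrower), 42 in FK866 plus succinate vs Control (0.0629% wider and 0.315% narrower) and 4 in FK866 vs Control (0.036% wider and 0% narrower). The same starts were then measured by all peaks of the merged region over the start, a setting added after the widths had been seen. FK866 plus succinate was again shorter than FK866 at 18 (against 41.9% of all promoters) and longer at 5 (against 6.68%), and shorter than Control at 20 (against 40.6%) and longer at 5 (against 7.05%). FK866 was shorter than Control at 3 (against 15.4%) and longer at 6 (against 17.6%). None of the 11120 promoters passed an adjusted p of 0.05 on that measure in any comparison (limma), with 1655, 1611 and 495 at an unadjusted p under 0.05 in FK866 plus succinate vs FK866, FK866 plus succinate vs Control and FK866 vs Control.

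Mcm3 came closest. Its start-site peak was 1234 and 1428 bp wide in FK866 plus succinate, 1971 and 2063 bp in FK866 and 1935 and 1979 bp in Control. The difference was -686 ± 80.7 bp from FK866 (limma, adjusted p = 0.0708) and -626 ± 80.7 bp from Control (limma, adjusted p = 0.0691). Upstream of the start the Mcm3 peak reached 170 and 211 bp in FK866 plus succinate, 208 and 300 bp in FK866 and 179 and 181 bp in Control. Downstream it reached 1063 and 1216 bp in FK866 plus succinate, 1762 bp in both FK866 libraries and 1755 and 1797 bp in Control. The summit stood 119 bp downstream in all 6 libraries. A further 270 bp of the same stretch was called as a separate peak in FK866 plus succinate replicate 1. With it, FK866 plus succinate differed by -551 ± 58.7 bp from FK866 (limma, adjusted p = 0.0829) and by -491 ± 58.7 bp from Control (limma, adjusted p = 0.0774), and both of its libraries were still the shortest.

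Birc5, the inhibitor-of-apoptosis protein survivin of the chromosomal passenger complex, was the nearest on the mitotic side. Its peak was 1993 and 1810 bp wide in FK866 plus succinate, 2233 and 2281 bp in FK866 and 2271 and 2291 bp in Control (limma, adjusted p = 0.194 vs FK866 and 0.162 vs Control). Downstream it reached 984 and 775 bp in FK866 plus succinate, 1253 and 1301 bp in FK866 and 1296 and 1311 bp in Control, and upstream it lay between 974 and 1034 bp in all 6. E2f2 had 2284 and 2194 bp in FK866 plus succinate, 2381 and 3409 bp in FK866 and 3254 and 3243 bp in Control. Splitting enters here too, with a further 348 bp in FK866 plus succinate replicate 2 and 703 bp in FK866 replicate 1 called as separate peaks. With them E2f2 had 2284 and 2542 bp in FK866 plus succinate, 3084 and 3409 bp in FK866 and 3254 and 3243 bp in Control (limma, adjusted p = 0.120 vs FK866 and 0.101 vs Control).

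Cdk1 was 2084 and 2081 bp wide in FK866 plus succinate, 2176 and 2262 bp in FK866 and 2242 and 2241 bp in Control (limma, adjusted p = 0.346 vs FK866). Plk1 was 2573 and 2355 bp wide in FK866 plus succinate, 2694 and 2613 bp in FK866 and 2678 and 2636 bp in Control. Mcm5 was 2005 and 2031 bp wide in FK866 plus succinate, 2035 and 2239 bp in FK866 and 2067 and 2142 bp in Control. In all 3 both FK866 plus succinate libraries were the narrowest, Mcm5 by a small margin. Mcm7 had a wider peak in FK866 plus succinate, 2217 and 2135 bp against 2031 and 1987 bp in FK866 and 1976 and 2054 bp in Control (limma, adjusted p = 0.320 vs FK866).

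Further genes of both pathways were counted on the same measure of covered length. All 44 other replication genes and all 42 other mitotic genes had a peak in all 6 libraries. None passed an adjusted p of 0.05 (limma). The other replication genes were not all parts of the replication machinery. They held the remaining Orc, Gins, Rfc and Rpa subunits, and also regulators such as Cdkn1a, Cdkn1b, Gmnn, Rb1, Rbl1 and Rbl2. Of the other replication genes, 18 were longer and 26 shorter in FK866 vs Control, 15 and 29 in FK866 plus succinate vs FK866, and 10 and 34 in FK866 plus succinate vs Control. Their median changes were -2.73%, -5.20% and -6.46%. Of all 15358 windows 41.9%, 48.8% and 42.9% were longer in these comparisons, with medians of -2.16%, -0.729% and -2.64%. Of the other mitotic genes, 24 were longer and 18 shorter in FK866 vs Control, 22 and 20 in FK866 plus succinate vs FK866, and 19 and 23 in FK866 plus succinate vs Control. Their median changes were 1.31%, 0.839% and -4.31%. In FK866 vs Control the median of the other mitotic genes was thus above 0, where that of the 15 listed mitotic genes was below it. The mitotic medians also differed in sign in FK866 plus succinate vs FK866 (0.839% against -3.98% for the listed genes). The replication medians did so in FK866 plus succinate vs Control (-6.46% against 1.07% for the listed genes). In the remaining cases the sign was the same for the listed and the other genes.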

How the data were processed

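The 6 CUT&Tag libraries came from cultured mouse colon ILC2s, with groups and replicate numbers taken from the labels. Per the submitters' processing notes, reads were processed with cutadapt 1.9 and Bowtie2 2.5.0 on mm10. The authors deposited 1 peak list per library in the 10-column narrowPeak layout, called per library and not on pooled samples; which caller made them is not stated in the labels. A deposited score is 10 times −log10 p for between 99.88% and 99.98% of peaks (decimals dropped). The deposited fold is a ratio of signal over background in 1 library, and the deposited −log10 p and −log10 q (columns of p-values) also refer to 1 library, so they were used only to rank peaks within a list. The weakest peak of each list had a −log10 p of about 1.3, which means that the lists include many weak peaks. Depth is unknown, because no read counts or coverage were used here.

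Only peaks on chromosomes 1 to 19, X and Y were used, which left out 43 to 55 per library. Gene spans came from a GRCm38.p6 table with mm10 coordinates. Covered base pairs per window (span plus 2 kb on each side) were computed with Python 3.11.15, numpy 2.4.6 and pandas 2.3.3, and compared with limma 3.58.1 (lmFit, eBayes with a trend) in R 4.3.3, without scaling, over 15358 windows covered in at least 2 libraries, with Benjamini-Hochberg adjustment at 0.05. The step was also run on simulated lengths, with changes larger than those of most genes of the list. That run does not show if smaller changes would be found. Percent changes are relative to the second-named group's mean. Overlapping peaks of the 6 lists were merged to 101435 regions, and 1 bp of peak counted as presence.

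Members, roles, other pathway genes and motifs were chosen with earlier results of these data known. Genes were named with values by a rule: up to 4 per role and comparison whose groups do not overlap, by percent change, the highest and lowest of each role by percent of window covered, and up to 10 changed regions per comparison. Other genes of the list were added where a count or a promoter turned on them. Alternatives were other windows, stricter or equal peak lists, scalings, filters, a log2 scale, a replicate block, each library left out, and, added after seeing the data, the width of the peak over the start site and the summed length of all peaks in the merged region there.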

Additional observations from a re-analysis of the deposited data

How the results depend on the processing

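With 2 libraries per group, no gene of the list passed an adjusted p of 0.05 in limma under any alternative, and the count of 0 says nothing about stability. The smallest adjusted p among them lay between 0.0691 and 0.0708 for the width of the peak over the start site with added succinate. With no filter on low values limma called 17, 9 and 33 windows in FK866 vs Control, FK866 plus succinate vs FK866 and FK866 plus succinate vs Control, and with the higher-scoring 50% of each list 0, 2 and 2, none of them in the list. Replicate numbers were not shown to pair the libraries: deviations of same-numbered libraries correlated at -0.00889 (FK866 and Control), 0.0172 (FK866 plus succinate and FK866) and -0.134 (FK866 plus succinate and Control). With the replicate block 0 genes of the list passed in each comparison, with smallest adjusted p in limma of 1, 0.650 and 0.580. Regions of the list that changed in presence numbered 6, 7 and 8. With peaks at an adjusted p under 0.05 they numbered 1, 4 and 5, with the higher-scoring 50% 0, 2 and 4, and with lists of equal length 4 in FK866 plus succinate vs FK866 and 5 in FK866 plus succinate vs Control. Leaving out 1 library, which asks for presence in a single library, gave 20 to 36, 18 to 38 and 19 to 34. The percent change of single genes turned sign 34 times, mostly where weak or distant peaks were left out by construction. In FK866 vs Control the changes of opposite sign were Top2a 2.11% within 2 kb of both gene ends, Tyms 4.23%, E2f1 -2.34%, Ccnd2 3.48%, Cdk2 -2.1%, Bub1b 0.99% and Top2a 2.71% within 4 kb around the lead site, Gins1 2.77% and Tyms 4.23% with only peaks at an adjusted p under 0.05, Gins1 11.8%, Tyms 4.23% and Top2a 2.71% with the higher-scoring 50% of each list, and Gins1 2.77% with lists of equal length. In FK866 plus succinate vs FK866 the changes of opposite sign were Orc1 -3.23%, Cdc45 -5.75%, Ccne1 -3.75%, Ccnd2 -0.0858%, Ccnd3 -4.31% and Mki67 5.56% within 4 kb around the lead site, Orc1 -4.99% and Gins1 -23.3% with only peaks at an adjusted p under 0.05, Cdc6 14.3% and Gins1 -34.1% with the higher-scoring 50% of each list, and Orc1 -4.99% with lists of equal length. In FK866 plus succinate vs Control the changes of opposite sign were Gins2 -11% in the gene span without flanks, Mcm4 -4.37% within 2 kb of both gene ends, Mcm4 -4.37%, Gins2 -2.03%, Ccne1 -5.99% and Mki67 7.86% within 4 kb around the lead site, Mcm4 -4.37% and Gins2 -2.03% with only peaks at an adjusted p under 0.05, and Mcm4 -4.37% and Gins2 -2.03% with the higher-scoring 50% of each list.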
